A study of Mus musculus with 3 samples.

Results

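The circadian clock genes described here are 10 genes picked by symbol: Arntl, Clock, Npas2, Per1, Per2, Cry1, Cry2, Nr1d1, Ciart and Rorb. All 10 were found among the 24054 genes of the deposited expression table. RNA was sequenced from primary cortical neurons of C57BL/6 mice, taken at embryonic day 17 and grown for 7 days, with 1 library in each of 3 groups. The hypoxia with T3 culture had 7 hours at 0.2% oxygen in medium holding 5 nM of the thyroid hormone T3 (triiodothyronine). The hypoxia culture had the same 7 hours at 0.2% oxygen without T3. The control culture stayed at 21% oxygen. The hormone content of the control medium, the time of day of harvest and the number of animals behind a culture are not given in the sources used here, and there is 1 time point, so neither phase nor amplitude of a rhythm was measured. With a single library per group, differences could not be tested, and ratios of the clock genes come with an exact 95% interval for counting error alone.

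In mammals, the clock is a feedback loop of transcription. ARNTL (also called BMAL1) pairs with CLOCK or its relative NPAS2 and activates genes through E-box elements, among them the Per, Cry, Nr1d1 and Ciart genes, whose products in turn restrain that activation. In a second loop REV-ERBα, the product of Nr1d1, represses Arntl through elements that ROR proteins activate. Npas2 is known for its expression in the forebrain, and Rorb is also known as a gene of layer 4 neurons.

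The clock genes did not move together under low oxygen. The 3 activator genes were lower than in control in both hypoxic libraries, and 4 of the 7 remaining genes (Ciart, Per1, Nr1d1 and Cry2) were higher than in control in both. A gene was called when its ratio was at least 2-fold after 1 CPM (reads scaled to library size, the deposited unit) was added to both values. In hypoxia over control, 4 of the 10 clock genes were called lower, where 4.92% of the 12692 genes compared were, and 1 was called higher, where 1.99% were. In hypoxia with T3 over control, 2 were called lower, against 4.59% of all genes, and 1 higher, against 2.06%. Both comparisons use the same control library. The clock genes were chosen with earlier results of these data known, so their shares beside those of all genes are a description and no test of enrichment. With 5 CPM added in place of 1, Rorb alone kept its call in hypoxia over control, and Ciart missed it at a log2 ratio of 0.99, while Ciart and Rorb kept theirs in hypoxia with T3 over control. A gene was compared where its values averaged 1 CPM or more, which every clock gene did. Counting error alone separated many genes: the interval of hypoxia over control lay above 1 for 4 of the 10 clock genes, against 37.8% of all genes, and below 1 for 4, against 30% of all genes. In hypoxia with T3 over control it lay above 1 for 5 of the 10, against 40% of all genes, and below 1 for 4, against 29.6%. By this looser measure the shares of clock genes were close to those of all genes.

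**Figure D1:**
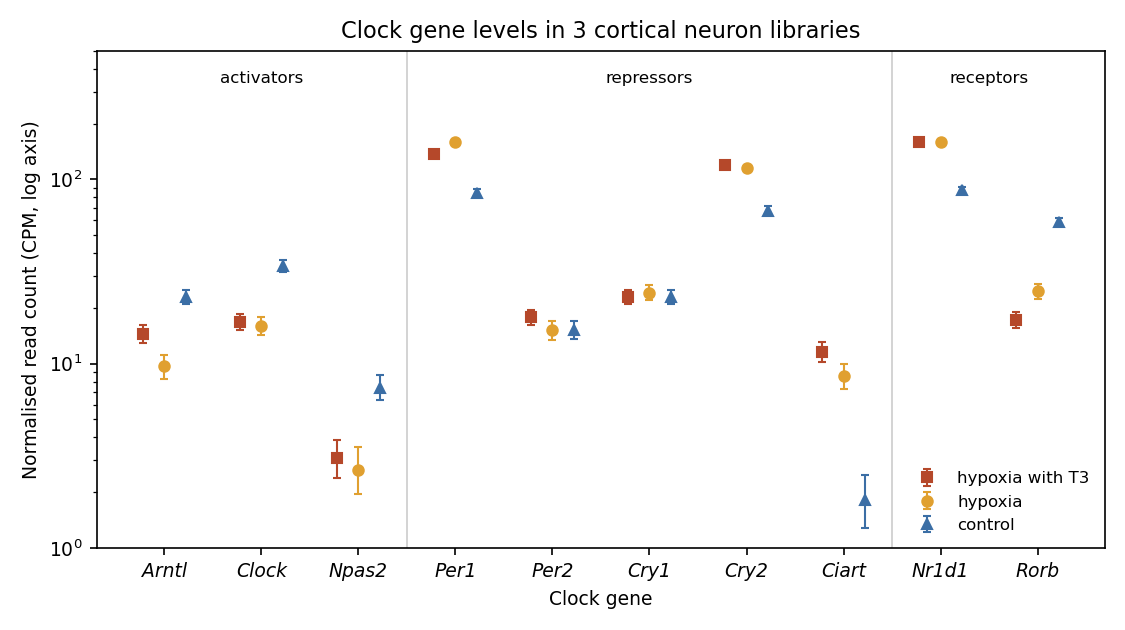
Normalised read count (CPM, log axis) of the 10 clock genes in the hypoxia with T3, hypoxia and control libraries, 1 point per library, with exact 95% Poisson intervals for counting error. The activators and Rorb sit lower in both hypoxic libraries than in control, and Per1, Cry2, Ciart and Nr1d1 sit higher.

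Among the activators, Arntl, whose product is the common partner of CLOCK and NPAS2, was at 14.5 CPM in hypoxia with T3, 9.67 CPM in hypoxia and 23.1 CPM in control, from 341, 175 and 499 reads. It was 2.39-fold lower in hypoxia than in control (2.01 to 2.86) and 1.59-fold lower in hypoxia with T3 than in control (1.39 to 1.84). The library with T3 thus lay between the other two. Clock, which encodes the histone acetyltransferase partner of ARNTL, was at 16.8 CPM in hypoxia with T3, 16.1 CPM in hypoxia and 33.97 CPM in control. It was 2.11-fold lower in hypoxia than in control (1.84 to 2.43) and 2.03-fold lower in hypoxia with T3 than in control (1.79 to 2.30). The last ratio was -0.98 on the log2 scale once 1 CPM was added and so just missed the call. Npas2 rested on the fewest reads, at 3.06 CPM in hypoxia with T3, 2.65 CPM in hypoxia and 7.42 CPM in control, from 72, 48 and 160 reads. It was 2.80-fold lower in hypoxia than in control (2.01 to 3.95) and 2.42-fold lower in hypoxia with T3 than in control (1.82 to 3.24). The ratio of Npas2 to Clock did not differ detectably: there were 0.183 Npas2 reads per Clock read in hypoxia with T3 (0.140 to 0.235), 0.165 in hypoxia (0.119 to 0.224) and 0.218 in control (0.183 to 0.259), with overlapping intervals. Clock reads per Arntl read were 1.16 in hypoxia with T3 (0.997 to 1.34), 1.66 in hypoxia (1.37 to 2.02) and 1.47 in control (1.31 to 1.65). The hypoxic libraries thus differed beyond counting error. The interval of each overlapped that of control, only slightly for hypoxia with T3, and such overlap does not show that a difference was absent.

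The repressors did not move as one group. Ciart, which encodes the repressor CHRONO that binds ARNTL, had the largest ratio of the 10. It was at 11.6 CPM in hypoxia with T3, 8.56 CPM in hypoxia and 1.81 CPM in control, from 273, 155 and 39 reads. Ciart was 6.42-fold higher in hypoxia with T3 than in control (4.58 to 9.23) and 4.74-fold higher in hypoxia than in control (3.32 to 6.91). Per1, a period gene that is also an immediate early gene in neurons, was at 137 CPM in hypoxia with T3, 160.1 CPM in hypoxia and 84.9 CPM in control. It was 1.89-fold higher in hypoxia than in control (1.78 to 2.002) and 1.62-fold higher in hypoxia with T3 than in control (1.53 to 1.72), short of the call in both. Its relative Per2 was at 17.9 CPM in hypoxia with T3, 15.2 CPM in hypoxia and 15.3 CPM in control. For Per2 the ratio of hypoxia over control was 0.997 (0.846 to 1.17), so any difference there was too small for this depth to detect. Its ratio of hypoxia with T3 over control was 1.17, with an interval that only just cleared 1 (1.009 to 1.35).

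The cryptochromes, partners of the PER proteins, also parted. Cry2 was at 119.5 CPM in hypoxia with T3, 115 CPM in hypoxia and 67.8 CPM in control, 1.76-fold higher in hypoxia with T3 than in control (1.65 to 1.88) and 1.70-fold higher in hypoxia than in control (1.59 to 1.82). Cry1 was at 23.0 CPM in hypoxia with T3, 24.3 CPM in hypoxia and 23.0 CPM in control. The ratio of Cry1 in hypoxia over control, 1.06 (0.928 to 1.204), was not distinguishable from equality, and it turned to a log2 value of -0.09 when libraries were scaled to equal sums and to -0.01 with TMM factors recomputed. There were 5.21 Cry2 reads per Cry1 read in hypoxia with T3 (4.75 to 5.72), 4.74 in hypoxia (4.27 to 5.26) and 2.95 in control (2.66 to 3.27). The corresponding number of Per1 reads per Per2 read was 7.70 in hypoxia with T3 (6.95 to 8.54), 10.5 in hypoxia (9.28 to 11.9) and 5.55 in control (4.93 to 6.26). Both within-family ratios were therefore above control in both hypoxic libraries, beyond counting error.

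The nuclear receptor genes went in opposite directions. Nr1d1 was at 158.9 CPM in hypoxia with T3, 160.3 CPM in hypoxia and 87.4 CPM in control, 1.82-fold higher in hypoxia with T3 than in control (1.72 to 1.92) and 1.83-fold higher in hypoxia than in control (1.73 to 1.94). Rorb, which encodes a ROR receptor of the retina, pineal gland and brain, was at 17.3 CPM in hypoxia with T3, 24.7 CPM in hypoxia and 58.8 CPM in control. It was 3.41-fold lower in hypoxia with T3 than in control (3.04 to 3.82) and 2.38-fold lower in hypoxia than in control (2.14 to 2.66). Unlike Arntl, Rorb had its lowest value in the library with T3. For Clock and Npas2 the hypoxic libraries did not differ detectably.

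**Figure D2:**
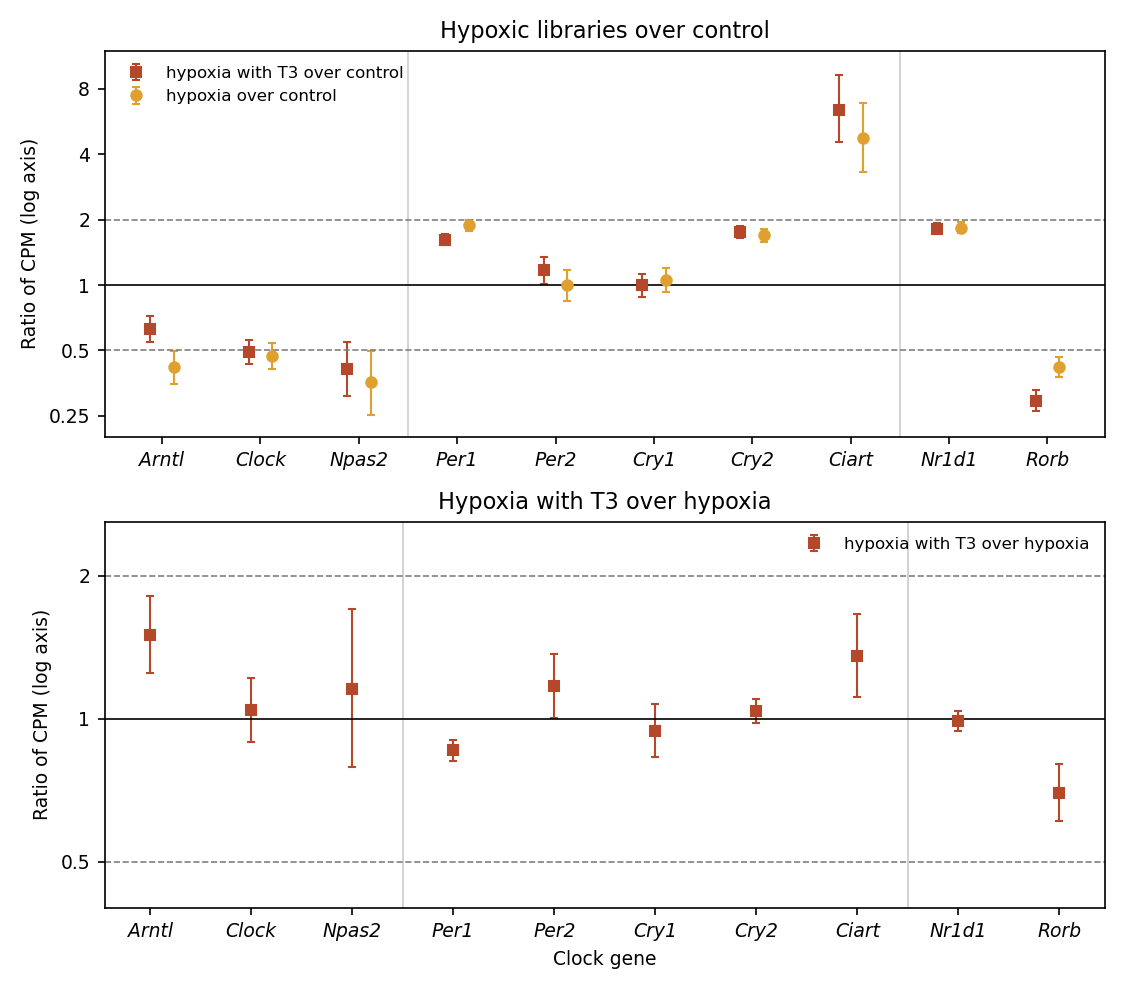
Ratio of CPM (log axis) of each clock gene, above for hypoxia with T3 and hypoxia over control, below for hypoxia with T3 over hypoxia, with exact 95% counting intervals, a solid line at 1 and dashed lines at 2 and 0.5. Ciart is 6.42-fold higher in hypoxia with T3 and 4.74-fold higher in hypoxia than in control, the activators and Rorb lie below 1, and no clock gene passes 2-fold between the hypoxic libraries.

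Sequences at the starts of these genes are shown because the loop acts through short promoter elements. RefSeq windows (GRCm38.p6, 250 bases before to 50 after a start) were at hand for 9 of the 10 genes, 14 windows in all, and none for Per2. Letters in capitals mark the E-box CACGTG, the E-prime box CACGTT and AGGTCA, the core site shared by ROR, REV-ERB and thyroid hormone receptors. A match on the other strand shows its reverse complement. The windows below are, for Ciart, chr3:95882179-95882478 on the minus strand, for Per1 chr11:69098699-69098998 on the plus strand, for Cry1 chr10:85185005-85185304 on the minus strand, for Nr1d1 chr11:98775328-98775627 on the minus strand, and for Arntl chr7:113207261-113207560 on the plus strand. Ciart, Per1 and Cry1 are shown as the genes with an E-box, Nr1d1 and Arntl as the limbs of the second loop.
Ciart: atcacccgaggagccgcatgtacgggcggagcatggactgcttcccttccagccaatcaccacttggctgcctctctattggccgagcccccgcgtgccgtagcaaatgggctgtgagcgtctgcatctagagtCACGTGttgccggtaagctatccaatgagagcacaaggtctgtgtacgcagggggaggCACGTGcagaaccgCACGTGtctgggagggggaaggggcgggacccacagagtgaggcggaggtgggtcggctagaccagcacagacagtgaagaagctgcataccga
Per1: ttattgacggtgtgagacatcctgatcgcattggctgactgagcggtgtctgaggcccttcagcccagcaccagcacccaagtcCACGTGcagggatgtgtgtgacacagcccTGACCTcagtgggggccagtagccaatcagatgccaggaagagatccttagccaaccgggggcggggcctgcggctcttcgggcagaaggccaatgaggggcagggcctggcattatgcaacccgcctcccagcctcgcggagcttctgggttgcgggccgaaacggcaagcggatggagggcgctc
Cry1: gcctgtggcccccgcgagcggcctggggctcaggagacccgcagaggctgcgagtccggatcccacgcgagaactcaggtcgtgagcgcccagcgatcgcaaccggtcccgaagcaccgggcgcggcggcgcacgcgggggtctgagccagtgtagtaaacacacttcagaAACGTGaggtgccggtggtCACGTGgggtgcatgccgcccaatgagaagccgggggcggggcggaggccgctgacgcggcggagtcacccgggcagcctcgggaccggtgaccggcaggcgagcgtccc
Nr1d1: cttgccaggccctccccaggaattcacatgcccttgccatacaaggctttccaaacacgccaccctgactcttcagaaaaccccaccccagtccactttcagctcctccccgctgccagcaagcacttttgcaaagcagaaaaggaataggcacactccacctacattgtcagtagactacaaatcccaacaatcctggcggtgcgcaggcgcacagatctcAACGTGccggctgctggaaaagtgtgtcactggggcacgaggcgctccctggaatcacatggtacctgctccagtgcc
Arntl: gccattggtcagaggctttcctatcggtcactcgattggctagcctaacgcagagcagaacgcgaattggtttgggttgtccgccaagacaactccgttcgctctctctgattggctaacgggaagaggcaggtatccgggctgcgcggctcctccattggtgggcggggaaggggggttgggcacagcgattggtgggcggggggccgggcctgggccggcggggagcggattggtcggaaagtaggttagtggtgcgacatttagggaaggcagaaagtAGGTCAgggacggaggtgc

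Ciart, the gene with the largest ratio, had 3 E-boxes, starting at -116, -58 and -44 from its start. Per1 had 1 at -166, in the window of its upstream start, and Cry1 had 1 at -60. Of all 32851 RefSeq windows, 7.15% held an E-box on either strand. The E-prime box was in windows of Cry1, Cry2, Nr1d1 and Rorb, and in 4.68% of all windows. Cry1 held both elements, at a level that did not differ detectably between hypoxia and control, so possession of an E-box in these windows did not separate the higher clock genes from the others. AGGTCA was in windows of Arntl (at 32 after the start), Per1 (at -137) and an internal start of Clock (at -119), and in 16.3% of all windows. The full cyclic AMP element TGACGTCA was in none of the 14 windows and in 1.79% of all, while the shorter TGACG was in windows of Per1, Cry1 and Cry2 and in 20.8% of all. The D-box forms TTATGTAA and TTACGTAA were in none of the 14 and in 0.938% and 0.119% of all. The letters ACGTG and GCGTG, cores of the hypoxia response element, were in 7 and 9 of the 14 windows, from 7 and 8 of the 9 genes. They were in 19.6% and 32.4% of all windows, and ACGTG is contained in every E-box and E-prime box.

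Ratios of reads within a library do not depend on how libraries are scaled to each other. The pairs were chosen after the values were seen. There were 9.48 Per1 reads per Arntl read in hypoxia with T3 (8.47 to 10.6), 16.6 in hypoxia (14.2 to 19.4) and 3.67 in control (3.32 to 4.06). For Nr1d1 there were 10.96 reads per Arntl read in hypoxia with T3 (9.81 to 12.3), 16.6 in hypoxia (14.2 to 19.4) and 3.78 in control (3.42 to 4.18). For Cry2 the numbers were 8.24 in hypoxia with T3 (7.36 to 9.25), 11.9 in hypoxia (10.2 to 14.0) and 2.93 in control (2.65 to 3.25). In all 3 pairs hypoxia was highest, hypoxia with T3 was intermediate and control was lowest, with no overlap of intervals. These pairs share Arntl as denominator, so they are not separate results. Between the hypoxic libraries the ratio of CPM held 1 in its interval for Nr1d1 (0.944 to 1.04) and Cry2 (0.981 to 1.10). The order of the hypoxic libraries in those pairs therefore repeats that of Arntl. Ciart had 0.801 reads per Arntl read in hypoxia with T3 (0.680 to 0.941), 0.886 in hypoxia (0.709 to 1.11) and 0.0782 in control (0.0549 to 0.108), and here the hypoxic libraries overlapped. Nr1d1 reads per Rorb read were 9.20 in hypoxia with T3 (8.31 to 10.2), 6.49 in hypoxia (5.87 to 7.19) and 1.49 in control (1.38 to 1.60).

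**Figure D3:**
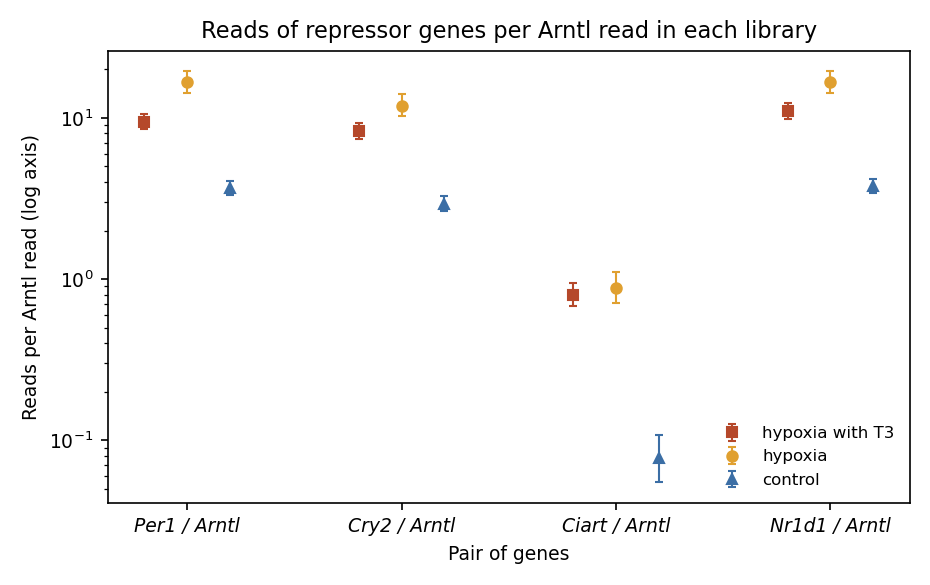
Reads of Per1, Cry2, Ciart and Nr1d1 per Arntl read (log axis) in each library, with exact 95% counting intervals. All 4 ratios are higher in both hypoxic libraries than in control, and the one for Ciart is 0.801 and 0.886 in hypoxia with T3 and hypoxia, against 0.0782 in control.

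Levels of different genes were compared as CPM per kilobase of exon. Nr1d1 was highest in every library, at 51.6 CPM per kb in hypoxia with T3, 52.1 in hypoxia and 28.4 in control, followed in each by Per1, Cry2 and Cry1. Ciart came next after these 4 in both hypoxic libraries, at 5.13 CPM per kb in hypoxia with T3 and 3.79 in hypoxia, and was last of the 10 in control at 0.799. Rorb was at 1.56 CPM per kb in hypoxia with T3, below Arntl, at 2.23 in hypoxia, and at 5.31 in control, where it came right after Cry1. The remaining order in hypoxia with T3 was Per2 (3.05), Arntl (1.93), Clock (1.22) and Npas2 (0.639), in hypoxia Per2 (2.603), Arntl (1.28), Clock (1.17) and Npas2 (0.553), and in control Arntl (3.07), Per2 (2.61), Clock (2.47) and Npas2 (1.55). Neighbours whose intervals overlapped were, in hypoxia, Per2 with Rorb and Arntl with Clock, and, in control, Arntl with Per2 and Per2 with Clock. In hypoxia with T3 no neighbours overlapped.

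The hypoxic libraries differed less from each other than from control. No clock gene was called in hypoxia with T3 over hypoxia in either direction, where 0.126% of all genes were called higher and 0.063% lower. The counting interval lay above 1 for 3 of the 10 clock genes, against 11.1% of all genes, and below 1 for 2, against 6.71%. Arntl was 1.5002-fold higher with T3 than in hypoxia (1.25 to 1.81), Ciart was 1.36-fold higher (1.11 to 1.66) and Per2 1.17-fold higher, with an interval that only just cleared 1 (1.004 to 1.37). Rorb was 1.43-fold lower with T3 than in hypoxia (1.25 to 1.64) and Per1 1.17-fold lower (1.11 to 1.23). For Nr1d1 the ratio was 0.991 (0.944 to 1.04), for Cry2 1.04 (0.981 to 1.10), for Clock 1.04 (0.894 to 1.22), for Cry1 0.945 (0.832 to 1.07) and for Npas2 1.15 (0.791 to 1.70). For these 5 a difference was not detectable at this depth, and for Npas2 the interval is wide because few reads lie behind it.

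The order of the clock genes by ratio over control was close to their order by genomic span, the length of the transcribed locus including introns. The 4 genes called lower in hypoxia span 94.9 kb (Clock), 107 kb (Arntl), 169.5 kb (Npas2) and 181 kb (Rorb). The higher ones span 3.75 kb (Ciart), 7.40 kb (Nr1d1), 14.7 kb (Per1) and 30.4 kb (Cry2), and Per2 and Cry1 lie between at 43.3 and 53.4 kb. On mm10, by GENCODE, Ciart is on chromosome 3 from 95878503 to 95882251 (minus strand), Arntl on chromosome 7 from 113207465 to 113314126 (plus strand) and Clock on chromosome 5 from 76209868 to 76304792 (minus strand). Npas2 is on chromosome 1 from 39193731 to 39363236 (plus strand) and Rorb on chromosome 19 from 18930605 to 19111196 (minus strand). Of all 1409 genes that span 90 to 200 kb, 17.2% were called lower in hypoxia over control and 0.0710% higher, with a median log2 ratio of -0.36 and a 10th percentile of -1.21. The log2 ratios of Arntl (-1.18), Clock (-1.03), Npas2 (-1.205) and Rorb (-1.22) stand near that percentile. Of the 2947 genes under 10 kb, 5.26% were called higher, with a median of 0.33 and a 90th percentile of 0.75, which Nr1d1 (0.87) and Ciart (1.77) exceed. Per1 (0.91) also exceeded the 90th percentile of genes of 10 to 30 kb, 0.57, and Cry2 (0.75) that of genes of 30 to 90 kb, 0.34. Per2 (-0.004) and Cry1 (0.08), also of 30 to 90 kb, stayed below it. The 4 higher clock genes were grouped by their ratios in this same comparison, so their place beyond those percentiles is partly fixed by that choice. The part of span in these results was not tested. Between the hypoxic libraries span made no such difference: the median log2 ratio of genes of 90 to 200 kb was 0.02, and that of genes under 10 kb was -0.01.

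**Figure D4:**
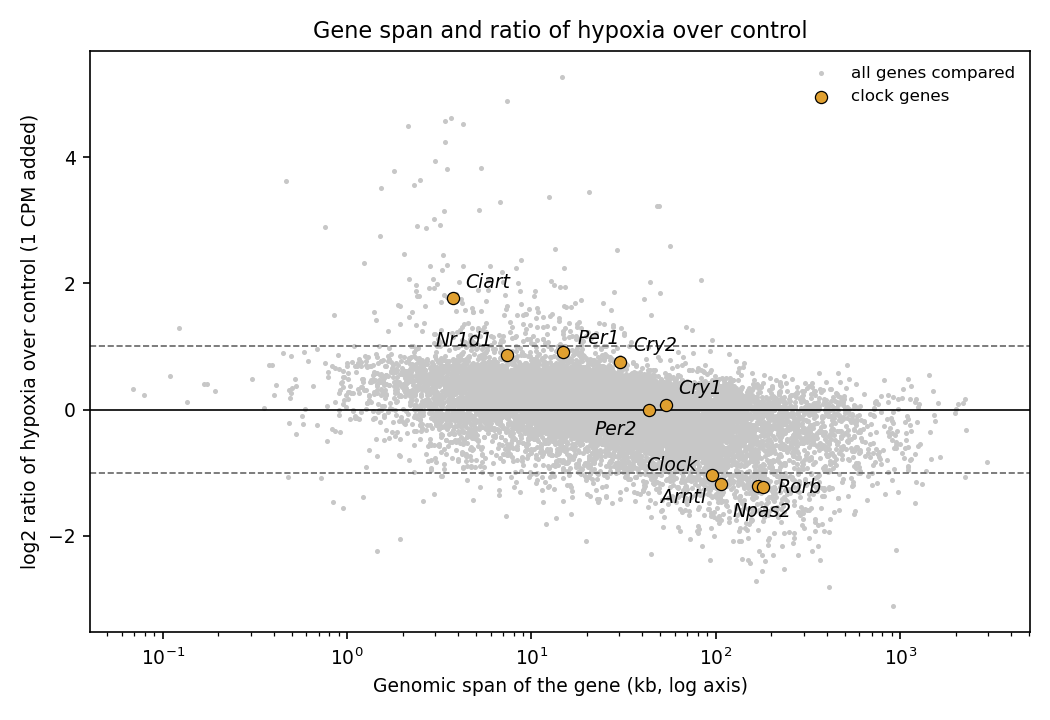
Log2 ratio of hypoxia over control (1 CPM added) against genomic span (kb, log axis) for the genes compared (grey) and the 10 clock genes (orange), with dashed lines at 2-fold. The clock genes run from Ciart at 3.75 kb and 1.77 down to Rorb at 181 kb and -1.22. Among all genes under 10 kb the median was 0.33 and the 90th percentile 0.75. Among those of 90 to 200 kb the median was -0.36 and the 10th percentile -1.21.

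Of 10 other genes of the loop, 8 were compared. The median log2 ratio of hypoxia over control was 0.06 on this list, 0.04 for the 10 clock genes and 0.05 over all genes. Over all genes, 4.92% were called lower and 1.99% higher in hypoxia over control, and 4.59% and 2.06% in hypoxia with T3 over control. None of the 8 was called in either comparison with control. Nfil3, a repressor that competes at D-boxes, came closest at 100.1 CPM in hypoxia with T3, 117.7 CPM in hypoxia and 59.5 CPM in control, 1.98-fold higher in hypoxia than in control (1.84 to 2.12). Rora, the relative of Rorb, was lower, at 5.02 CPM in hypoxia with T3, 4.81 CPM in hypoxia and 9.36 CPM in control, 1.95-fold lower in hypoxia than in control (1.51 to 2.53). Bhlhe40, which encodes the E-box repressor DEC1, was at 29.9 CPM in hypoxia with T3, 22.9 CPM in hypoxia and 17.2 CPM in control. Its ratio was 1.74 in hypoxia with T3 over control (1.53 to 1.98) and 1.31 in hypoxia with T3 over hypoxia (1.16 to 1.48). Nr1d2, the relative of Nr1d1 that encodes REV-ERBβ, was at 8.67 CPM in hypoxia with T3, 7.07 CPM in hypoxia and 7.97 CPM in control, and its interval of hypoxia over control held 1 (0.700 to 1.12). The same held for Per3, at 2.13 CPM in hypoxia with T3, 2.32 CPM in hypoxia and 2.32 CPM in control. Bhlhe41, Cipc and Timeless had log2 ratios of hypoxia over control of 0.24, 0.12 and -0.23. Arntl2, at 0.850, 0.994 and 1.07 CPM in hypoxia with T3, hypoxia and control, was too low to be compared.

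The PAR bZIP factors DBP, TEF and HLF carry the clock to output genes through D-boxes. Tef was at 93.0 CPM in hypoxia with T3, 93.9 CPM in hypoxia and 53.0 CPM in control, 1.77-fold higher in hypoxia than in control (1.64 to 1.91). Dbp was at 3.83 CPM in hypoxia with T3, 1.60 CPM in hypoxia and 1.11 CPM in control, from 90, 29 and 24 reads. It was called higher in hypoxia with T3 over control, at 3.44-fold (2.173 to 5.65), while the interval of hypoxia over control held 1 (0.810 to 2.58), and the ratio of hypoxia with T3 over hypoxia was 2.39 (1.56 to 3.77). Hlf was at 3.53 CPM in hypoxia with T3, 2.32 CPM in hypoxia and 6.12 CPM in control. It was called lower in hypoxia over control, at 2.64-fold (1.85 to 3.83), and its ratio of hypoxia with T3 over hypoxia was 1.52 (1.04 to 2.26). Hlf and Arntl were both lowest in hypoxia without T3. Clock and Npas2 were lowest there too, though without a detectable difference from hypoxia with T3. Dbp and Ciart were both highest with T3, as were Per2 and Bhlhe40.

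Per1 is a target of CREB, and the list of that axis had 1 of 6 genes called higher and 2 called lower in hypoxia over control, against 1.99% and 4.92% of all genes. Creb1 itself was lower, at 24.6 CPM in hypoxia with T3, 19.3 CPM in hypoxia and 60.7 CPM in control, 3.15-fold lower in hypoxia than in control (2.79 to 3.55). The coactivator gene Crtc3 was 2.22-fold lower (1.84 to 2.69), while Crtc2 had a ratio of 1.67 (1.41 to 1.98) short of the call. Sik1, a kinase gene that CREB induces and whose product restrains the CRTC proteins, was called higher at 2.495-fold (2.32 to 2.69), at 97.9 CPM in hypoxia with T3, 122 CPM in hypoxia and 48.9 CPM in control. Per1 and Sik1 had the same order of libraries, highest in hypoxia, then hypoxia with T3, then control. Crem, Crtc2 and, outside this list, Nfil3 and Npas4 had that order too, while Creb1 and Crtc3 were highest in control. For Crtc2 the hypoxic libraries did not differ detectably, with a ratio of hypoxia with T3 over hypoxia of 0.888 (0.765 to 1.03). The order was thus not particular to genes of this list. A link of these genes through CREB was not tested.

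The bHLH-PAS family, to which ARNTL, CLOCK and NPAS2 belong with the hypoxia-inducible factors, had 12 further genes, of which 9 were compared. Of these, 1 was called higher in hypoxia over control and 2 lower, against 1.99% and 4.92% of all genes, with a median log2 ratio of -0.11, against 0.05 over all genes. Npas4, a factor induced by neuronal activity, was 5.12-fold higher (4.51 to 5.84), Npas3 2.67-fold lower (2.25 to 3.18) and the dioxin receptor gene Ahr 2.40-fold lower (1.81 to 3.20). Hif3a was at 1.32 CPM in hypoxia with T3, 1.93 CPM in hypoxia and 4.45 CPM in control, with a log2 ratio of -0.89 in hypoxia over control.

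Genes that act on clock proteins follow. Of the 11 kinase and turnover genes compared, none was called and the median log2 ratio of hypoxia over control was 0.06. Gsk3b was 1.47-fold lower (1.43 to 1.52), the deubiquitinase gene Usp7 1.36-fold lower (1.29 to 1.44), and the casein kinase genes Csnk1d and Csnk2b were 1.42-fold (1.35 to 1.49) and 1.40-fold (1.31 to 1.501) higher. Of 10 cofactor genes none was called in hypoxia over control, with a median of 0.07. Sirt1, the deacetylase gene, had a ratio of 1.92 (1.69 to 2.18) and was called higher in hypoxia with T3 over control at 2.06-fold (1.83 to 2.33). Kdm5a, Ep300 and Kmt2a, whose products modify histones at clock genes, were 1.66-fold (1.48 to 1.87), 1.62-fold (1.51 to 1.75) and 1.59-fold (1.49 to 1.69) lower in hypoxia than in control. Over all 47 clock-related genes compared outside the 10, 2 were called higher and 5 lower in hypoxia over control, against 1.99% and 4.92% of all genes.

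**Figure D5:**
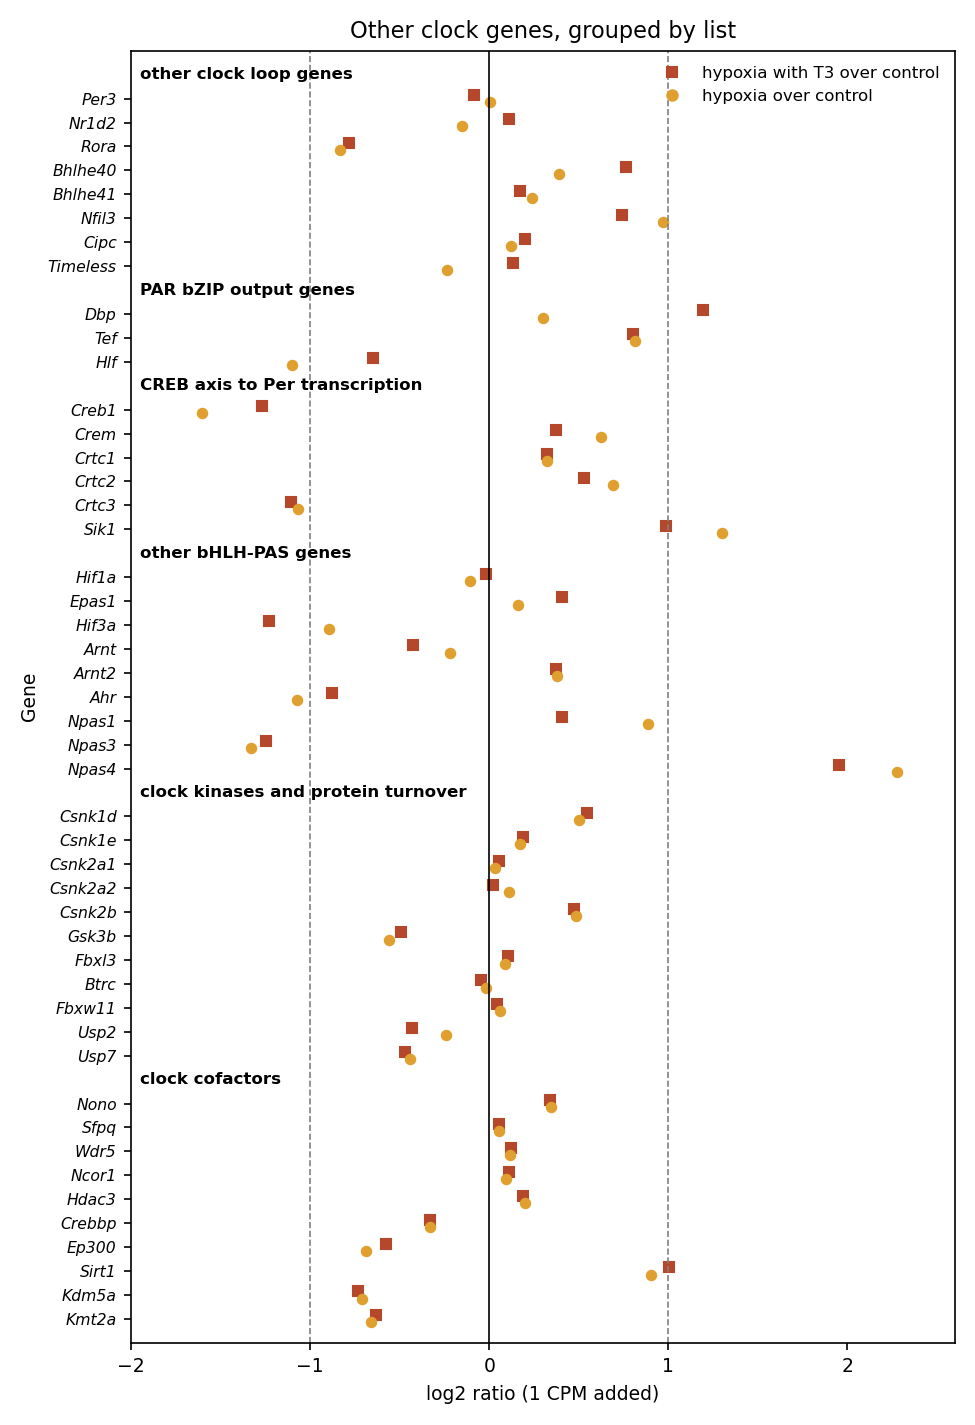
Log2 ratios over control (1 CPM added) of 47 other clock-related genes by list, for hypoxia with T3 (squares) and hypoxia (circles), with dashed lines at 2-fold. Creb1, Crtc3, Hlf, Npas3 and Ahr lie below -1 and Sik1 and Npas4 above 1 in hypoxia over control.

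For the 5 genes called in hypoxia over control, genes of most similar pattern were found among the genes that averaged 5 CPM or more, by the distance over the log2 ratios of hypoxia and of hypoxia with T3 over control, which rest on 3 libraries. They were Brwd3 and Zfp560 for Arntl (distances 0.05 and 0.07), Xkr4 and Dcp2 for Clock (0.02 and 0.02), Pgr and Arid2 for Npas2 (0.02 and 0.02), Hspa2 for Ciart (0.18), and Lrrc4c and Pcdh20 for Rorb (0.07 and 0.11). With 9985 candidate genes and 3 libraries, close neighbours of this kind are easily found.

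The authors' deposited tables compare each hypoxic library with control by a test not named in the sources used here, with 1 library on each side. In the authors' deposited table for hypoxia over control, Ciart had a signed fold of 4.53. The false discovery rates of these tables rest on 1 library per side and are not reported here. In the authors' deposited table for hypoxia with T3 over control, Ciart had a signed fold of 6.09. Rorb had a signed fold of -3.58 there, the minus sign marking a fold below 1. The folds of these tables were a median of 0.958 and 0.951 times the ratios of CPM, and the cause was not tested.

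The libraries held 22533574 reads for hypoxia with T3, 17118865 for hypoxia and 18081904 for control. A floor of 3 reads, taken as the most that a count of 0 allows, was 0.128, 0.166 and 0.139 CPM. The exact 95% interval for a count of 0 reaches somewhat higher. Neuron markers summed to 5159.6, 5255 and 5455 CPM in hypoxia with T3, hypoxia and control, a sum in which Tubb3 was lower than in control, at 739, 873 and 1771 CPM, and Stmn2 higher, at 1793, 1809.6 and 1334 CPM. Astrocyte markers summed to 514, 499 and 479 CPM in the same order, so that glia were present. Oligodendrocyte lineage markers, all 6 compared, summed to 95.0 CPM in hypoxia with T3, 99.9 CPM in hypoxia and 187 CPM in control, and none was at 0; their part in the lower clock genes was not tested. Microglial markers summed to at most 1.62 CPM in any library. Of the layer 4 markers other than Rorb, Kcnh5 was at 0.510, 0.773 and 2.595 CPM in hypoxia with T3, hypoxia and control, while Whrn was at 14.4, 13.6 and 16.1 CPM and Scnn1a at 1.74, 1.22 and 1.16 CPM. In such bulk libraries fewer cells of a type and less RNA per cell cannot be told apart.

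For 9 of the 10 clock genes, under 1% of their 31-base words occur in transcripts of another gene (at most 0.634%, in Rorb). The words were read on the same strand, so overlaps with genes on the other strand, given below for Nr1d1 and Cry2, are not counted. Ciart shares 20.8% of its words with the pseudogene Gm9176, which has no row in the expression table. Nr1d1 (chromosome 11, 98767932 to 98775333, minus strand, mm10) overlaps the thyroid hormone receptor gene Thra tail to tail over 263 exonic bases, 8.55% of its exons. Thra had several times more reads, at 877.9 CPM in hypoxia with T3, 882 CPM in hypoxia and 642 CPM in control, and the kit keeps strand, but whether the counting used it is not given in the sources used here. Nr1d1 reads per Thra read were 0.181 in hypoxia with T3 (0.175 to 0.187), 0.182 in hypoxia (0.175 to 0.189) and 0.136 in control (0.130 to 0.143), so the gene was higher relative to its neighbour as well. Cry2 overlaps the antisense transcript D930015M05Rik over 295 exonic bases, whose level was at most 0.608 CPM.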

How the data were processed

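Total RNA of primary cortical neurons was made into strand-specific libraries with a KAPA kit, per the labels' protocols. Tools named in the submitters' processing notes, without roles, are RSEM 1.2.15, Bowtie2 2.1.0 and bcl2fastq 2.17, with the build mm10. The authors deposited a table of CPM values, TMM normalised per its file name, and 2 comparison tables. Per the file headers these hold a signed fold, a p-value, a false discovery rate and value columns, which are signal on another scale by the authors and were not used. Of the CPM values, 100% were whole multiples of 1 read within 0.01, so whole reads were recovered. With 1 library per group there are no residual degrees of freedom, and no count test was run. CPM as deposited gave the log2 ratios, with 1 CPM added, over the 12692 genes that averaged 1 CPM or more. Ratios printed as folds have nothing added. Clopper-Pearson limits (95%, exact) were taken on the split of reads between 2 libraries or 2 genes. They cover counting error only, since reads counted without molecular identifiers are not separate molecules. The procedure was tested on simulated data. Spans, exons and shared words come from GENCODE M21 (the mm10 assembly), matched for 99.2% of the genes compared, and promoters from RefSeq (GRCm38.p6), searched for fixed motifs on both strands. The clock genes and lists were chosen with earlier results of these data known. The text names all 10 clock genes, the other loop and PAR bZIP genes, and up to 4 genes of each other list with the largest ratios in hypoxia over control. Crem is named besides for its order of libraries. It also names 2 genes of most similar pattern for each called clock gene, overlapping neighbours and cell type markers. Some genes that these rules name are not reported here. Alternatives were 0.1 or 5 CPM added, no filter or a mean of at least 5 CPM, and scaling to equal sums, by edgeR TMM factors or by DESeq2 size factors. Software was Python 3.11.15, numpy 2.4.6, pandas 2.3.3, scipy 1.17.1, matplotlib 3.10.9, R 4.3.3, edgeR 4.0.16 and DESeq2 1.42.0.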

Additional observations from a re-analysis of the deposited data

How the results depend on the processing

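With 5 CPM added in place of 1, which shrinks ratios of low genes by construction, hypoxia over control had 0 clock genes called higher and 1 lower, 1 in all, among 155 higher and 286 lower genes (441). Hypoxia with T3 over control then had 1 clock gene called lower, among 167 higher and 269 lower genes (436), and hypoxia with T3 over hypoxia had 8 higher and 1 lower gene (9). With 0.1 CPM added the last comparison had 44 higher and 18 lower genes (62). Requiring a mean of at least 5 CPM left Npas2 out, so that 1 clock gene was called lower in hypoxia with T3 over control, and between the hypoxic libraries 3 genes were called lower, 14 in all. Scaling libraries to equal sums moved the median log2 ratio of all genes in hypoxia over control to -0.10, against 0.05, with 952 genes called lower there and 899 in hypoxia with T3 over control. The higher share of calls was then 16.5%, against 28.8%, in hypoxia over control, and 17.9%, against 31.04%, in hypoxia with T3 over control. Under the 3 other scalings the clock genes called in hypoxia over control remained 1 higher and 4 lower, and there, as with 0.1 CPM added, Clock was also called lower in hypoxia with T3 over control. Cry1 was the only clock gene whose log2 ratio changed sign, in 2 of the 207 alternative values. No clock gene was called between the hypoxic libraries under any alternative. No paired analysis was possible because each group has 1 library.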
